A study of Mus musculus with 16 samples.

Results

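The 8 genes described here encode the route from tumor necrosis factor (TNF) to caspase-8 and to necroptosis: the ligand Tnf, its receptor Tnfrsf1a, the adaptor and kinase genes Ripk1 and Fadd, the protease gene Casp8 and its regulator Cflar, and the necroptosis genes Ripk3 and Mlkl. They were chosen by symbol for their place in this pathway, with earlier results of these data known, from 49585 genes in a table of read counts. All 8 passed the filter on low counts that left 12559 genes for testing. The table came from RNA sequencing of small intestinal organoids, which are epithelial cultures grown in Matrigel from intestinal crypts. Autophagy-deficient organoids lacked Atg16l1 through a villin-driven Cre that acts in intestinal epithelium (Atg16l1 ΔIEC, here KO), and the controls carried the same floxed alleles without the Cre (Atg16l1 fl/fl). Each genotype was left untreated or received recombinant murine IL-22 at 10 ng/ml for 24 h, which gave 4 groups of 4 cultures. Donor mice were 8 to 12 weeks old. The sample descriptions carry a number that was read here as that of an organoid line, although they do not define it. On this reading each genotype was represented by 2 lines, each with 2 cultures per treatment, and a difference between genotypes cannot be told apart from one between these lines. The p-values below measure the spread between cultures, of which pairs share a line.

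TNF binding to TNFR1, the product of Tnfrsf1a, assembles a membrane complex around RIPK1 that signals to NF-κB and survival genes. When that signal is interrupted, RIPK1, FADD and caspase-8 form a second complex that can start apoptosis, in which cFLIP, the product of Cflar, holds caspase-8 in check. Where caspase-8 activity is low, RIPK3 phosphorylates MLKL, which then breaks the plasma membrane in the form of death called necroptosis. IL-22, a cytokine of lymphoid cells, acts on intestinal epithelium through a receptor that signals mainly by STAT3. The measurements are of transcripts, and give neither the phosphorylation nor the cleavage on which these proteins depend.

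The upstream sequences of 5 of the genes are shown because these genes moved most with IL-22 or with genotype (Ripk3, Mlkl, Casp8, Tnf) or hold the STAT-type motif near a start (Ripk1). Each run is the 250 bases before a RefSeq transcription start on GRCm38.p6, 5′ to 3′ in the direction of the gene, and capitals mark matches to 3 motifs searched on both strands. These were the STAT-type motif TTCNNNGAA, the interferon-stimulated response element core (GAAA, 2 bases of any kind, GAAA) and a loose NF-κB motif (GGG, 5 bases of any kind, CC).
Ripk3, chr14:55788858-55789107, minus strand: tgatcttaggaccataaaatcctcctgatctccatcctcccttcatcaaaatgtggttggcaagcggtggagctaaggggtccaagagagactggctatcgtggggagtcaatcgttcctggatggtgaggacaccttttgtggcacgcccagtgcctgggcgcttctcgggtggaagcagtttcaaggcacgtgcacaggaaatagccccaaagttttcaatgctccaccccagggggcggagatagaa
Mlkl, chr8:111338206-111338455, minus strand: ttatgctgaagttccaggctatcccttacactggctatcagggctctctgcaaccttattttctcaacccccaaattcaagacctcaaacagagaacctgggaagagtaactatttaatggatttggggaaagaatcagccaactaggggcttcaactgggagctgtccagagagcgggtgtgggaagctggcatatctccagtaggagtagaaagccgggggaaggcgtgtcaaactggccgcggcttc
Casp8, chr1:58802252-58802501, plus strand: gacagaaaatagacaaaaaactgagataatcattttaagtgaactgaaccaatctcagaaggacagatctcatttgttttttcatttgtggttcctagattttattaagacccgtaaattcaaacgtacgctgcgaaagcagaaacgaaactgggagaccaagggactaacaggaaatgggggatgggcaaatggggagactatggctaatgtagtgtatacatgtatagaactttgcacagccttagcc
Tnf, chr17:35202008-35202257, minus strand: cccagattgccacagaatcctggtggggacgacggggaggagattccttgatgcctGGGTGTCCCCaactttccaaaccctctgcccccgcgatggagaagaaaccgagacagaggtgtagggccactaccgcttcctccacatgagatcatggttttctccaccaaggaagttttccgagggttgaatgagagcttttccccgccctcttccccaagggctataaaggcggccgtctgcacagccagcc
Ripk1, chr13:34002624-34002873, plus strand: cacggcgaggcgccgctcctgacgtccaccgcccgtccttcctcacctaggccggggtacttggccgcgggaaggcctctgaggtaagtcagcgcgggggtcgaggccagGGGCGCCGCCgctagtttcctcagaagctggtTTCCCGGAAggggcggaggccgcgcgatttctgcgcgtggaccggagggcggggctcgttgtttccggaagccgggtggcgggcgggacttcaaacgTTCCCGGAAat
The windows of Ripk3, Mlkl and Casp8 held none of the 3 motifs. The Tnf window held one NF-κB match, GGGTGTCCCC, at bases -194 to -185 from the start. The window of the second of 2 Ripk1 starts held TTCCCGGAA at -108 to -100 and again at -11 to -3, and an NF-κB match, GGGCGCCGCC, at -140 to -131. Among the 9 windows of the 8 genes, the only other matches were in Tnfrsf1a, with TTCCGTGAA at -244 to -236 and GGGTTAGTCC at -216 to -207. No 2 of these matches overlapped. Of 32851 windows of the same length over all genes, 7.02% held the STAT-type motif, 2.98% the interferon element core and 45.8% the NF-κB motif. A match is a run of letters and was not tested as a binding site.

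The files held 2135000 to 5574860 counts on genes per culture. These made up 36.27% to 38.33% of all counts in the file, rows for unassigned reads included. Atg16l1, the targeted gene, stood at 31.6 to 51.8 CPM (counts per 1000000 counts of the scaled library) in the 8 fl/fl cultures and at 0.289 to 5.97 in the 8 KO cultures, without overlap, and the highest KO value came from 1 IL-22-treated culture of the first line with 21 counts. All 8 epithelial markers passed the filter on low counts. Among 13 immune cell markers, Ptprc, the common leukocyte gene, reached at most 1 count in any culture, Cd3e, S100a8 and Ncr1 were at 0 in all 16, and the summed level of 17.9 to 44.4 CPM came mostly from Kit and Csf1r, with up to 91 and 58 counts. Of 11 stromal and endothelial markers none passed the filter on low counts. Enterocyte markers summed to between 2920 and 3680 CPM in untreated cultures of both genotypes and to between 839 and 1590 with IL-22, while the 8 Paneth cell markers summed to between 5630 and 9580 CPM in fl/fl and between 3170 and 4820 in KO cultures. In such bulk cultures fewer cells of a type and less RNA per cell cannot be told apart, and the part of cell composition in the results below was not tested.

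With IL-22, 7 of the 8 genes rose in fl/fl organoids and the same 7 rose in KO organoids, at an adjusted p under 0.01 over all genes tested. The largest differences were those of Ripk3 in fl/fl (3.49-fold) and Mlkl in KO (2.93-fold), and the fold changes of Tnf and Casp8 were above those of Tnfrsf1a, Ripk1 and Cflar in both genotypes. Fadd was the exception. For all genes, 10.6% were called higher and 10.2% lower in fl/fl, and 9.83% higher and 7.65% lower in KO. The median log2 fold change of the 8 genes was 0.80 in fl/fl and 0.87 in KO, against -0.05 and -0.01 over all genes tested. When the cultures of a line were summed, leaving 2 lines a group, only Ripk3 and Casp8 in fl/fl and Ripk3, Casp8 and Mlkl in KO stayed past the threshold. With 1 of the 2 lines left out, the calls of Tnf, Ripk1, Mlkl and Cflar in fl/fl and of Ripk1 and Cflar in KO were lost for at least 1 line, the highest adjusted p being 0.072, for Ripk1 without the first KO line. In the same comparisons 6 of the 8 epithelial markers rose in fl/fl, from a summed 7130 to 9620 CPM to 11300 to 13400, and 2 rose in KO. At the same time 6 of the 8 enterocyte markers fell in fl/fl and 4 in KO, and 4 of the 7 stem cell markers fell in fl/fl and 6 in KO, and their part in the rise of the 7 genes was not tested.

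**Figure D1:**
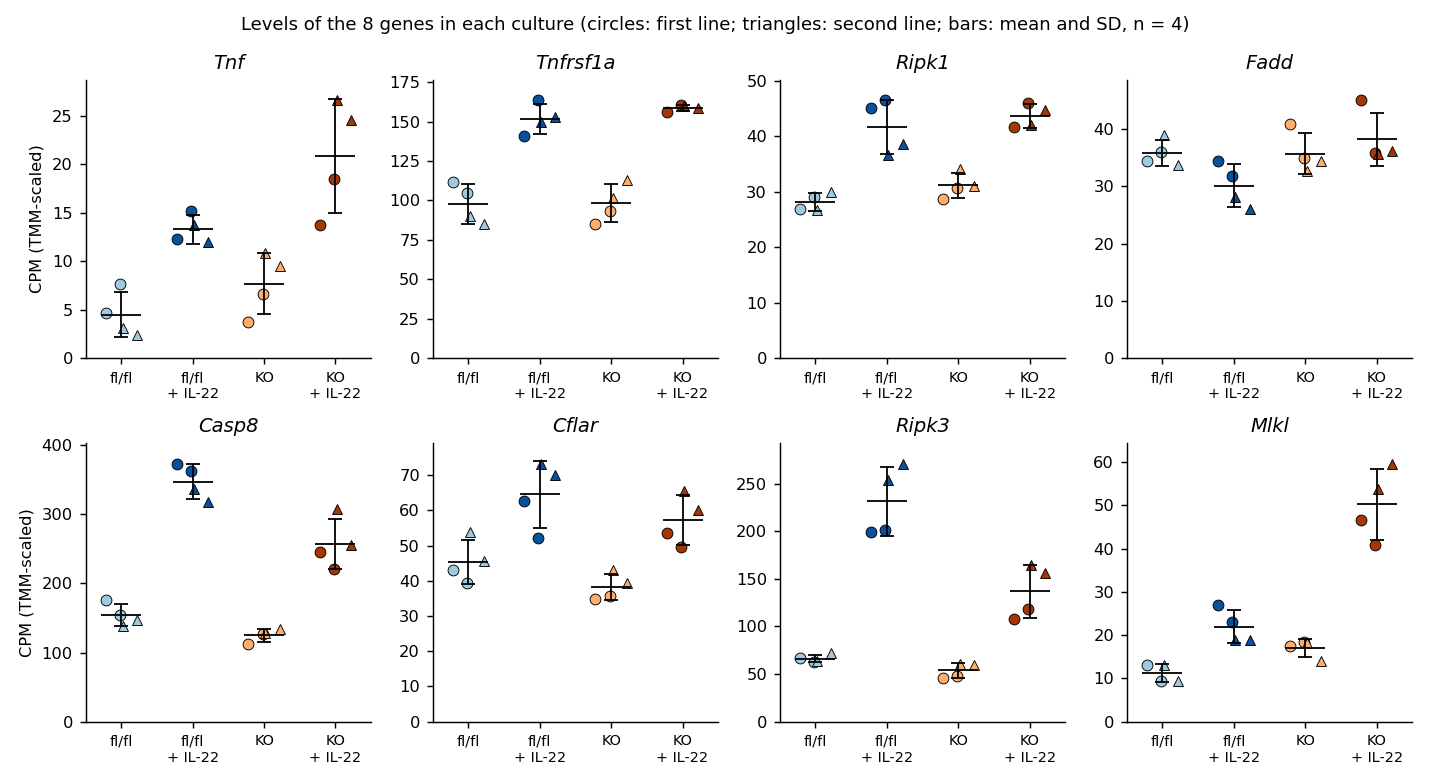
TMM-scaled CPM (vertical axes, each from 0) of the 8 genes in each of 16 cultures, by group, with circles for the first and triangles for the second line of a genotype and bars for the mean and SD (n = 4). Ripk3 and Casp8 were highest in IL-22-treated fl/fl cultures, Mlkl in IL-22-treated KO cultures, and Fadd ranged from 26.07 to 44.96 CPM.

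Tnf, the ligand, was read from 7 to 88 counts in a culture. Its level in untreated fl/fl cultures was 4.68, 7.66, 3.17 and 2.41 CPM, and 12.3, 15.2, 13.7 and 12 CPM after IL-22. All treated cultures lay above all untreated ones, and the second line had the lowest untreated values. The fitted log2 fold change was 1.53 ± 0.32 (SE; adjusted p = 0.00104). In KO cultures Tnf stood at 3.77, 6.64, 10.9 and 9.55 CPM without and at 13.8, 18.5, 26.6 and 24.6 CPM with IL-22. The treated and untreated KO cultures did not overlap, and both values of the second line lay above both values of the first within each treatment. The log2 fold change was again 1.53 ± 0.29 (adjusted p = 4.44e-04). With 4 against 4 cultures an exact two-sided permutation test cannot go below p = 0.029, the value reached by Tnf in both genotypes. Without the second fl/fl line, the fl/fl difference was 1.16 on the log2 scale and no longer passed (adjusted p = 0.0527).

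Tnfrsf1a, which encodes the receptor through which TNF reaches the death machinery, stood at 112, 105, 90.2 and 84.8 CPM in fl/fl cultures without IL-22 and at 141, 163, 149 and 153 CPM with it. The KO values were 84.9, 93.5, 102 and 113 CPM untreated and 156, 161, 160 and 158 CPM with IL-22. IL-22 separated the cultures completely in each genotype, and the 4 treated KO cultures spanned less than 5 CPM. The log2 fold changes were 0.63 ± 0.09 in fl/fl (adjusted p = 3.6e-05) and 0.70 ± 0.09 in KO (adjusted p = 1.15e-05).

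Ripk1, the kinase and scaffold shared by the survival and death complexes, rose less. Its fl/fl values were 26.9, 29.1, 26.8 and 30.0 CPM without and 45.1, 46.5, 36.6 and 38.7 CPM with IL-22. The KO values were 28.8, 30.8, 34.2 and 31.2 CPM without and 41.7, 46.0, 42.0 and 44.9 CPM with IL-22. Neither genotype showed overlap between treated and untreated cultures. The log2 fold change was 0.55 ± 0.10 in fl/fl (adjusted p = 2.81e-04) and 0.49 ± 0.10 in KO (adjusted p = 8.95e-04). Exons of Ripk1 are overlapped on the other strand by Serpinb6a, with 657 to 2223 counts, and the strand setting of the counting is not given in the sources used here, so that a share of reads from one gene may have been counted for, or lost to, the other.

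Fadd, the adaptor that brings caspase-8 to RIPK1, was the only one of the 8 that did not pass in any comparison. It stood at 34.5, 36.0, 39.0 and 33.7 CPM in untreated and 34.5, 31.8, 28.2 and 26.1 CPM in treated fl/fl cultures, and the treated values of the second line were the lowest. In KO cultures it stood at 40.8, 34.9, 32.6 and 34.5 CPM without and 45.0, 35.8, 35.7 and 36.2 CPM with IL-22. The groups overlapped in both genotypes, with log2 fold changes of -0.25 (95% interval -0.49 to -0.02, adjusted p = 0.0962) in fl/fl and 0.08 (-0.16 to 0.31, adjusted p = 0.66) in KO. An antisense gene, Faddos, with 14 to 55 counts, shares exon sequence with Fadd.

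Casp8, the protease that starts receptor-driven apoptosis and restrains RIPK3, had the highest mean level per kb of exon of the 8 in every group. Its spread overlapped that of Ripk3 in treated fl/fl cultures and that of Tnfrsf1a in untreated KO cultures (43.3 ± 3.23 and 37.9 ± 4.62 CPM per kb for Casp8 and Tnfrsf1a, SD). Untreated fl/fl cultures held 176, 154, 139 and 147 CPM and treated ones 373, 362, 337 and 317 CPM. In KO organoids the values were 112, 126, 129 and 134 CPM without and 245, 221, 307 and 256 CPM with IL-22. The lowest treated culture of either genotype was above the highest untreated culture of both. The log2 fold change was 1.17 ± 0.10 in fl/fl (adjusted p = 3.08e-08) and 1.04 ± 0.10 in KO (adjusted p = 1.69e-07). No alternative setting ended either call. Cflar, whose product resembles caspase-8 but lacks its activity, stood at 43.0, 39.3, 54.0 and 45.5 CPM in untreated and 62.6, 52.1, 73.2 and 70.1 CPM in treated fl/fl cultures. The lowest treated culture fell below the highest untreated one, and the second line was higher than the first in each group. The log2 fold change was 0.52 ± 0.12 (adjusted p = 0.00255), with an exact permutation p of 0.0571. This call was lost without the second untreated culture (adjusted p = 0.0124) or without the third treated one (adjusted p = 0.014). In KO cultures Cflar stood at 34.9, 35.7, 43.0 and 39.5 CPM without and 53.5, 49.7, 65.6 and 60.2 CPM with IL-22, with no overlap and a log2 fold change of 0.59 ± 0.13 (adjusted p = 0.00131).

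Ripk3, the kinase that commits cells to necroptosis, had the largest IL-22 difference of the 8 in fl/fl organoids. Its untreated fl/fl values were 66.9, 62.5, 63.9 and 71.7 CPM, and those with IL-22 were 200, 201, 254 and 271 CPM. In KO cultures the values were 46.2, 48.5, 61.1 and 59.4 CPM without and 108, 119, 164 and 156 CPM with IL-22. The second line lay above the first in both treated groups. The log2 fold change was 1.80 ± 0.14 in fl/fl (adjusted p = 7.14e-09) and 1.37 ± 0.14 in KO (adjusted p = 4.12e-07), past the threshold under all 18 alternative settings in each genotype. Mlkl, which encodes the executioner of necroptosis, stood at 13.2, 9.44, 13.2 and 9.36 CPM in untreated and 26.9, 23.1, 19.0 and 18.9 CPM in treated fl/fl cultures. The KO values were 17.5, 18.5, 18.1 and 14.1 CPM without and 46.6, 40.9, 53.8 and 59.6 CPM with IL-22. Treated fl/fl cultures lay only just above untreated KO cultures, while the treated KO cultures stood apart from all others. The log2 fold change was 0.97 ± 0.17 in fl/fl (adjusted p = 2.5e-04) and 1.55 ± 0.15 in KO (adjusted p = 2.39e-07). The fl/fl call was lost without the first fl/fl line (adjusted p = 0.0196).

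**Figure D2:**
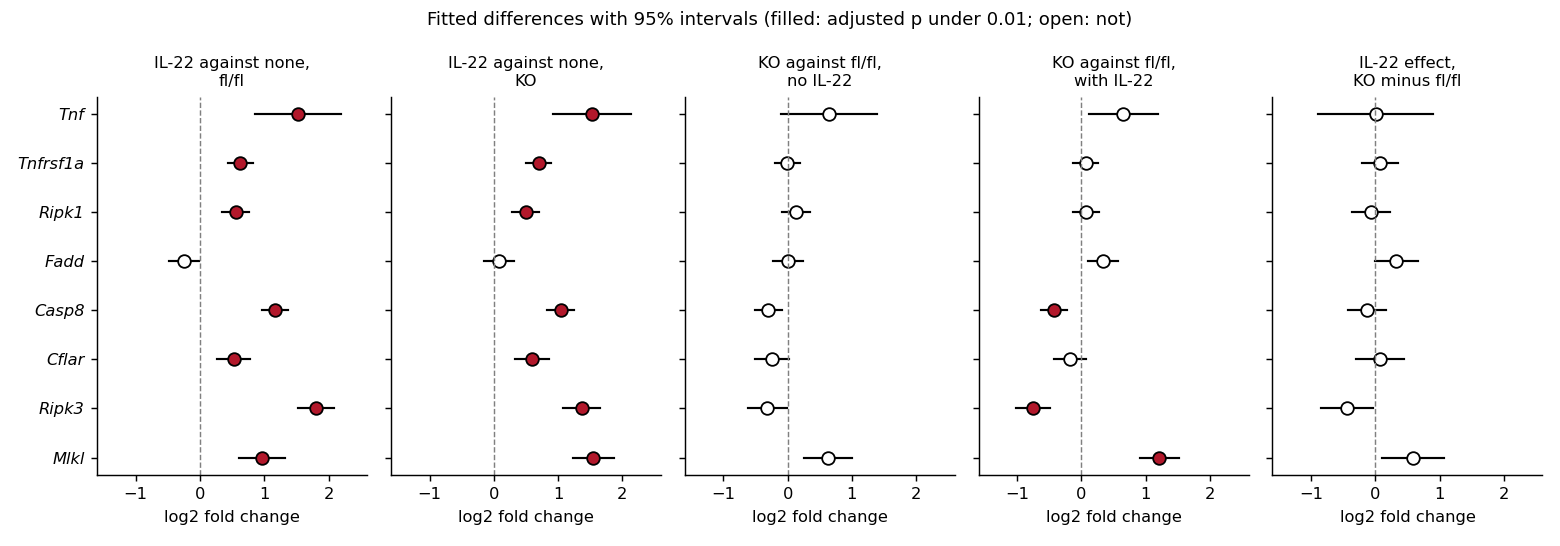
Fitted log2 fold changes (horizontal axis) of the 8 genes in the 4 comparisons, and the difference between the 2 IL-22 effects, with 95% intervals and filled points for an adjusted p under 0.01. IL-22 raised 7 genes in each genotype, and only Casp8, Ripk3 and Mlkl passed between genotypes, in the presence of IL-22.

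Without IL-22, none of the 8 genes passed the threshold between KO and fl/fl organoids by edgeR or by DESeq2, where 3.78% of all genes were called higher and 5.98% lower in KO. Unadjusted, Ripk3, Mlkl and Casp8 had p under 0.05, as did 4293 of all 12559 genes tested. For Ripk3, Mlkl and Casp8 the 4 KO cultures did not overlap the 4 fl/fl cultures, which was not counted over all genes. Mlkl was 17 ± 1.98 CPM in KO against 11.3 ± 2.16 in fl/fl (SD, n = 4), a log2 difference of 0.63 (adjusted p = 0.0182), and without the filter on low counts it passed (adjusted p = 0.00511). Casp8 was 125 ± 9.34 against 154 ± 15.8 CPM, a log2 difference of -0.30 (adjusted p = 0.0397), and Ripk3 was 53.8 ± 7.55 against 66.3 ± 4.06 CPM, a log2 difference of -0.32 (adjusted p = 0.127). Tnf was 7.71 ± 3.16 against 4.48 ± 2.32 CPM, with overlapping cultures and an interval of -0.10 to 1.39 on the log2 scale (adjusted p = 0.208). For Tnfrsf1a the log2 interval was -0.20 to 0.20, for Fadd -0.22 to 0.25, for Ripk1 -0.08 to 0.35 and for Cflar -0.52 to 0.02.

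With IL-22, 3 of the 8 genes differed between genotypes, Mlkl upward and Ripk3 and Casp8 downward in KO, where 9.91% of all genes were called higher and 9.84% lower. Mlkl was 50.2 ± 8.19 CPM in KO against 22 ± 3.85 in fl/fl (SD, n = 4), 2.32-fold higher (log2 fold change 1.21 ± 0.15 SE, adjusted p = 8.71e-06). Every KO culture was above every fl/fl culture, and this call held under all 19 alternative settings. Ripk3 was 137 ± 27.6 CPM in KO against 231 ± 36.4 in fl/fl, a log2 fold change of -0.76 ± 0.13 (adjusted p = 2.16e-04), again without overlap. Casp8 was 257 ± 36.5 against 347 ± 25.0 CPM, a log2 fold change of -0.43 ± 0.10 (adjusted p = 0.00199), and its highest KO culture lay just below its lowest fl/fl culture. With the cultures of a line summed, Mlkl alone of the 3 passed, while Ripk3 had an adjusted p of 0.0369 and Casp8 of 0.0584. The Casp8 call was also lost without the first fl/fl line (adjusted p = 0.0168) or the first KO line (adjusted p = 0.0557). Fadd was 38.2 ± 4.55 against 30.1 ± 3.73 CPM and did not overlap, but missed the threshold (adjusted p = 0.0246). Tnf was 20.9 ± 5.86 against 13.3 ± 1.47 CPM (log2 difference 0.65, interval 0.11 to 1.19, adjusted p = 0.0579), and only without the filter on low counts did it pass (adjusted p = 0.00451). The intervals for Tnfrsf1a (-0.13 to 0.26), Ripk1 (-0.13 to 0.27) and Cflar (-0.42 to 0.08) included 0. Beside these differences, 6 of the 8 Paneth cell markers and 5 of the 8 goblet cell markers were lower, and 3 of the 8 enterocyte markers higher, in KO cultures with IL-22. Their part in the 3 differences was not tested.

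Whether KO and fl/fl organoids differed in their response to IL-22 was tested in the same fit, as an interaction. It passed for none of the 8 genes by edgeR, with Mlkl and Ripk3 at an unadjusted p under 0.05, and for 0.0159% of all genes, 2 in number, with 912 genes at an unadjusted p under 0.05. DESeq2 gave an adjusted p for only 3 of the 8 (Tnfrsf1a, Ripk3 and Casp8), none of which passed. Mlkl rose by 0.58 more on the log2 scale in KO (interval 0.10 to 1.06, unadjusted p = 0.022, adjusted p = 0.565), and Ripk3 by 0.44 less (interval of the difference -0.84 to -0.03, unadjusted p = 0.0354, adjusted p = 0.639). For Fadd the difference was 0.33 (-0.003 to 0.66), for Casp8 -0.13 (-0.42 to 0.16), for Cflar 0.07 (-0.29 to 0.44), for Tnfrsf1a 0.07 (-0.21 to 0.35) and for Ripk1 -0.06 (-0.36 to 0.24). For Tnf the interval, -0.90 to 0.90, leaves room for a large difference either way. Since each line received both treatments, the lines can serve as a replicate block. With that block, 0.446% of all genes passed, 56 in number, and none of the 8 was among them, although the adjusted p of Ripk3 moved to 0.0311.

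Levels of different genes can be set side by side only per length, and are given here as CPM per kb of annotated exon. In untreated fl/fl cultures the order was Casp8 (53.2 ± 5.47), Tnfrsf1a (37.8 ± 4.80), Ripk3 (28.9 ± 1.77), Fadd (9.17 ± 0.60), Mlkl (4.90 ± 0.94), Cflar (3.59 ± 0.49), Ripk1 (3.38 ± 0.19) and Tnf (2.73 ± 1.42) (SD, n = 4). The last 3 lay within each other's spread, and the spread of Mlkl overlapped those of Cflar and Tnf. With IL-22, Ripk3 moved to 101 ± 15.9, past Tnfrsf1a at 58.5 ± 3.64, and no longer differed from Casp8, at 120 ± 8.65, beyond their spread. In treated KO cultures Casp8 stood at 88.9 ± 12.6, Tnfrsf1a at 61.2 ± 0.69 and Ripk3 at 59.7 ± 12, so that the last 2 did not differ beyond their spread. Mlkl, at 21.8 ± 3.56 there and at 9.54 ± 1.67 in treated fl/fl cultures, remained below Ripk3 in all groups. The annotated exons of Cflar (12669 bases) and Ripk1 (8344 bases) include long alternative parts, which lowers their values on this scale if those parts are not used.

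**Figure D3:**
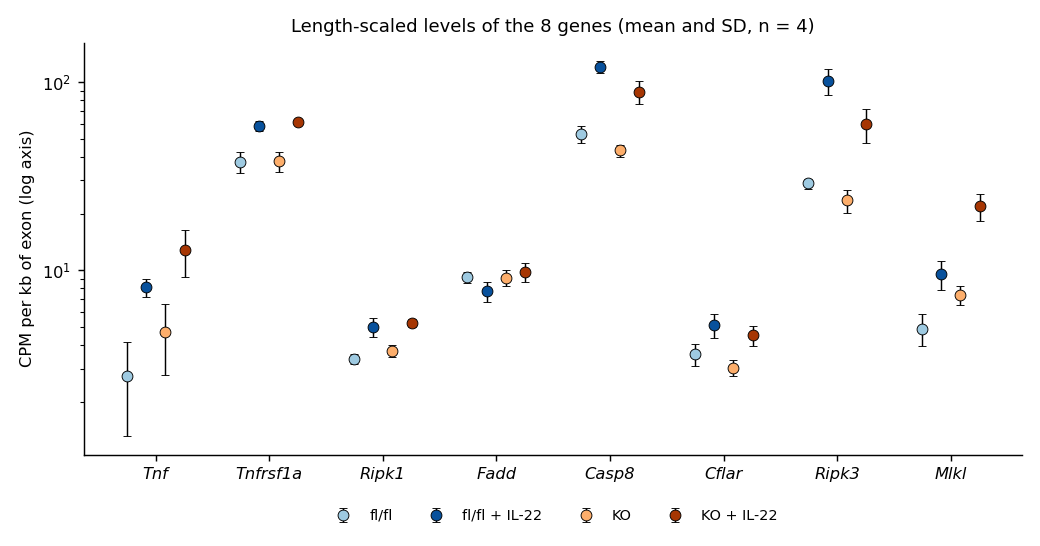
Mean CPM per kb of annotated exon (vertical axis, logarithmic) of each gene in the 4 groups, with SD (n = 4). Casp8, Tnfrsf1a and Ripk3 lay above the other 5 genes in every group.

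Across the 16 cultures, the genes whose log2 CPM followed each of the 7 IL-22-responsive genes most closely were described by Pearson's r, with no test, since the cultures share treatments and lines. Ripk3 was closest to Inf2 (r = 0.986), Tmem181b-ps (0.982) and Ier3 (0.980), and Casp8 to Serpinb1a (0.986), Zfand5 (0.985) and Muc13 (0.985). Mlkl was closest to Lgals9 (0.971), Calr (0.957) and Akr1b8 (0.955). Tnfrsf1a was closest to Duox2 (0.980), Duoxa2 (0.977), which together form an epithelial hydrogen peroxide source, and Plscr1 (0.976). Tnf was closest to Ecscr (0.963), H2-D1 (0.961) and Capg (0.957), Ripk1 had Reg1 (0.954) and Supt6 (0.949) among its closest, and Cflar was closest to Nfkbiz (0.940), Jak3 (0.928) and Smad7 (0.927). Among the 8 genes themselves, Ripk3 and Casp8 were the closest pair (r = 0.966), Ripk3 and Cflar next (0.913), while Ripk3 and Mlkl had r = 0.502.

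Of 86 other genes listed for the pathway, 74 passed the filter on low counts. IL-22 raised 22 and lowered 4 of them in fl/fl, and raised 22 and lowered 2 in KO, with medians of 0.16 and 0.19 on the log2 scale. Over all genes tested, 10.6% were called higher and 10.2% lower in fl/fl and 9.83% higher and 7.65% lower in KO, with medians of -0.05 and -0.01. Zbp1, the nucleic acid sensor that can engage RIPK3 directly, showed the largest rise. It stood at 1.2 ± 0.66 CPM in untreated and 10.3 ± 1.96 in treated fl/fl cultures (SD, n = 4; log2 fold change 3.15 ± 0.47 SE, adjusted p = 4.07e-05), and at 2.09 ± 2.33 and 20.7 ± 3.18 CPM in KO (3.56 ± 0.41, adjusted p = 1.81e-06). Untreated counts of Zbp1 were 1 to 13. Between treated genotypes Zbp1 missed the threshold (log2 difference 1.00, adjusted p = 0.0144). 

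Of the 10 ligand genes of the TNF family other than Tnf, 3 were tested, and 7, among them Lta, Ltb and Fasl, had at most 6 counts in any culture. In fl/fl organoids 2 rose and 1 fell, and in KO organoids 2 rose. Tnfsf10, encoding the death ligand TRAIL, went from 23.2 ± 4.64 to 53.2 ± 1.09 CPM in fl/fl (log2 fold change 1.19, adjusted p = 8.19e-06) and from 19.9 ± 2.03 to 48.9 ± 12.7 CPM in KO (1.29, adjusted p = 4.9e-06). Tnfsf13b, encoding the B cell factor BAFF, was the one that fell (log2 fold change -1.42, adjusted p = 0.00699), at levels of 3.33 and 1.26 CPM, and lost its call when any 1 of 6 of the 8 cultures was left out (highest adjusted p = 0.0372, without replicate 3 of the treated). Of 14 receptor genes 11 were tested, and 4 rose and none fell in each genotype. Of 6 genes for the shedding of TNF and its receptors 5 were tested, and 1 rose in fl/fl and 2 in KO. Across every tested gene, IL-22 calls came to 10.6% upward and 10.2% downward in fl/fl. The KO shares were 9.83% upward and 7.65% downward. The short lists of ligands, receptors and shedding genes were not tested against those shares.

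In the membrane complex around RIPK1, 4 of 19 genes rose and none fell in each genotype. Upward calls across every tested gene came to 10.6% in fl/fl and 9.83% in KO. The list of the complex was not tested against those shares. Birc3, encoding the ubiquitin ligase cIAP2, went from 28.3 ± 0.71 to 61.3 ± 2.35 CPM in fl/fl (log2 fold change 1.11, adjusted p = 7.7e-07) and from 36.5 ± 7.66 to 74.9 ± 7.42 in KO (1.07, adjusted p = 7.71e-07). Tab2, an adaptor of the TAK1 kinase, rose by 0.80 in KO (adjusted p = 9.91e-08) and by 0.47 in fl/fl (adjusted p = 6.14e-05). Of 11 genes that edit ubiquitin on this complex, 5 rose in fl/fl and 4 in KO, and this list was likewise not tested against those shares. Tnfaip3, encoding the NF-κB inhibitor A20, went from 33.6 ± 3.48 to 72.5 ± 7.53 CPM in fl/fl (1.10, adjusted p = 5.92e-06) and from 32.2 ± 5.98 to 75.5 ± 14.1 in KO (1.26, adjusted p = 1.27e-06). Otud7b, a deubiquitinase, rose by 0.61 in fl/fl (adjusted p = 2.18e-05) and by 0.42 in KO (adjusted p = 0.00101). Tax1bp1, a partner of A20, rose by 0.84 in KO (adjusted p = 1.53e-06) and by 0.56 in fl/fl (adjusted p = 1.39e-04). Tnip3, singled out after its values were seen, rose by 2.11 in fl/fl (adjusted p = 0.00161) and by 3.13 in KO (adjusted p = 1.13e-05), from 2.13 and 2.76 CPM untreated.

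Of 13 tested necroptosis partners, which include Zbp1, 5 rose and 2 fell in fl/fl and 4 rose in KO. The 2 that fell in fl/fl were Tlr3, a sensor of double-stranded RNA (log2 fold change -0.47, adjusted p = 0.00569), and Cdc37, a chaperone cofactor (-0.27, adjusted p = 0.00794). Both calls were lost when any 1 of 6 of the 8 cultures was left out, with adjusted p up to 0.0239 for Tlr3 (without replicate 2 of the treated) and 0.0313 for Cdc37 (without replicate 4 of the treated). Of 12 genes for other caspases and the apoptosome, 1 rose and 1 fell in fl/fl, and 2 rose and 2 fell in KO. Over all genes, 10.6% were called higher and 10.2% lower in fl/fl, and 9.83% and 7.65% in KO. Neither this short list nor that of the necroptosis partners was tested against these shares. Apaf1, the apoptosome scaffold, rose by 0.96 in fl/fl (adjusted p = 1.1e-07) and by 0.98 in KO (adjusted p = 6.84e-08). Casp9, the initiator of the mitochondrial route, fell in KO (-0.43, adjusted p = 0.00611), a call lost when any 1 of 5 of the 8 cultures was left out (highest adjusted p = 0.0255, without replicate 2 of the treated).

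**Figure D4:**
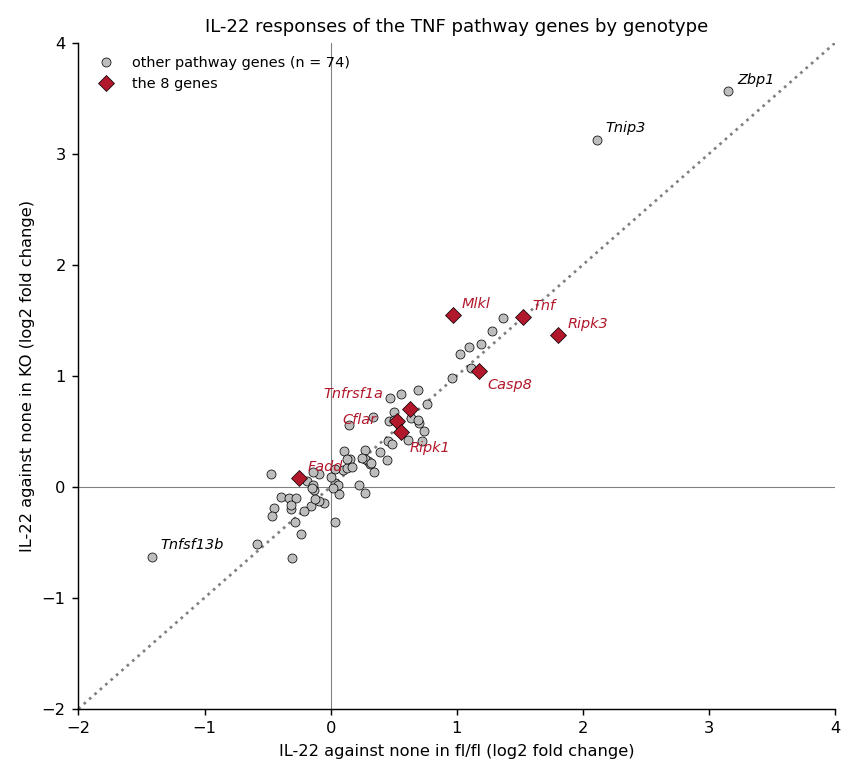
Log2 fold change with IL-22 in fl/fl (horizontal axis) and KO organoids (vertical axis) for 74 other pathway genes (circles) and the 8 genes (diamonds), with equal change on the dotted line. Zbp1 and Tnip3 lay farthest to the upper right, Mlkl above the line and Ripk3 below it.

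Between genotypes, 2 of the 74 other genes were higher and 2 lower in untreated KO organoids, and 6 were higher and 4 lower with IL-22. These counts were at or below the shares over all genes (3.78% higher and 5.98% lower untreated, 9.91% and 9.84% with IL-22). The genes named next are therefore given as single genes, and a difference of the pathway as a set was not tested. Tnfrsf1b, encoding the second TNF receptor, which lacks a death domain, stood at 22.2 ± 4.03 against 14.6 ± 1.24 CPM untreated (log2 difference 0.58, adjusted p = 0.00473) and at 36.5 ± 2.20 against 24.9 ± 1.44 with IL-22 (0.56, adjusted p = 0.00118). The untreated call was lost when any 1 of 4 of the 8 cultures was left out (highest adjusted p = 0.0206, without the first fl/fl culture) and with the line as a correlation in limma-voom (adjusted p = 0.0291). Among the other calls in untreated cultures were Hsp90aa1, a chaperone (0.46, adjusted p = 0.00226), and Rhbdf2, needed for the shedding of TNF (-0.52, adjusted p = 0.00364). Both also lost their calls without at least 1 culture, with the highest adjusted p at 0.0109 for Hsp90aa1 (without the second fl/fl culture) and 0.0217 for Rhbdf2 (without the first KO culture). Rhbdf2 also missed the threshold with the line as a correlation (adjusted p = 0.0162). None of the calls in untreated cultures passed once both cultures of each line were added together.

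With IL-22, the genes higher in KO were, besides Tnfrsf1b, Aurka, a mitotic kinase (0.66, adjusted p = 0.00111), Htra2, a mitochondrial protease (0.50, adjusted p = 0.00145), Cdc37 (0.34, adjusted p = 0.00179), Tnip3, encoding an A20-binding inhibitor of NF-κB (1.21, adjusted p = 0.00842), and Adar, the RNA editor (0.31, adjusted p = 0.00845). The calls of Tnip3 and Adar were lost when any 1 of 5 or of 6 of the 8 cultures was left out (highest adjusted p = 0.036 for Tnip3, without replicate 4 of KO, and 0.03 for Adar, without the first fl/fl culture). Those lower in KO were Tnfrsf19, encoding TROY (24.8 ± 6.47 CPM in fl/fl and 10.7 ± 5.17 in KO, -1.17, adjusted p = 0.00145), Ppm1b, a phosphatase that acts on RIPK3 (-0.33, adjusted p = 0.00161), Ticam1, encoding the adaptor TRIF (73.5 ± 8.02 in fl/fl and 50.0 ± 5.60 in KO, -0.54, adjusted p = 0.00194), and Casp9 (-0.42, adjusted p = 0.00573, but up to 0.0234 when 1 of 4 of the 8 cultures was left out, highest without replicate 2 of KO). With the cultures of a line summed, none of these 10 passed. The medians of the 74 genes were -0.03 untreated and 0.06 with IL-22 on the log2 scale, against -0.02 and 0.01 over all genes. None of the 74 passed in the test of the interaction.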

How the data were processed

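RNA from 16 organoid cultures was sequenced as paired reads of 150 bases. Per the submitters' processing notes and the methods, reads were trimmed with cutadapt and aligned with TopHat2 to mm10/GRCm38, and the authors deposited HTSeq counts per gene. The strand setting of the counting is not given in the sources used here. Rows for unassigned reads were left out of library sizes. Ensembl IDs without version were matched to GENCODE M21 symbols (49326 of 49585).

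Counts were scaled by TMM and tested with edgeR 4.0.16 (R 4.3.3, quasi-likelihood, filterByExpr on the 4 groups), in 1 fit of 4 group means, with Benjamini-Hochberg adjustment over 12559 genes and a threshold of 0.01. The standard error of an interaction is the root of the summed squares of those of the 2 IL-22 effects. Exact two-sided permutation tests used log2 CPM with a prior count of 2. Cultures of the same line deviated together from their group means (r 0.263 to 0.438 in fl/fl, 0.056 to 0.321 in KO), so the line was used as a block in an alternative. The r of different lines (-0.435 to -0.078) is not a separate result, since deviations from a group mean cancel within the group. DESeq2 1.42.0 and limma 3.58.1 gave further alternatives.

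The 8 genes, the pathway and marker lists and the tests were chosen with earlier results of these data known. Named pathway genes are those past the threshold, at most the 6 with the smallest p in each direction per comparison, and for each of the 8 genes past the threshold the 3 genes with the highest r over the 16 cultures. No lists were tested as sets. A few genes that these rules would name are not reported here. Alternatives were DESeq2, RLE scaling, no filter, a minimum of 10 counts in every culture, the compared groups only, the block, summed lines, limma-voom with the line as a correlation, a threshold of 0.05, and leaving out each culture or line.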

Additional observations from a re-analysis of the deposited data

Results flagged for a closer look

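In 1 of 32 sets of 4 cultures, 1 value stood far from the other 3. Fadd was at 45.0 CPM in the first IL-22-treated KO culture, of the first line, and at 35.7 to 36.2 in the other 3. The gap to the next culture, as a share of the whole range, was above the 95% limit of Dixon's ratio, which chance exceeds in about 1 in 20 such sets. Without this culture the log2 fold change of Fadd with IL-22 in KO went from 0.08 to -0.003, and Fadd did not pass the threshold with or without it. This culture also stood apart beyond Fadd. It had the fewest genes with a count (16363) and the highest share of counts ambiguous between genes (1.13%). Across genes, its chi-square per degree of freedom against the other culture of its line was 7.34. The other same-line pairs gave 1.35 to 3.4.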

How the results depend on the processing

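The counts of the 8 genes past the threshold moved by more than 1.5 times in few settings. With the cultures of a line summed (2 against 2) they were 2 with IL-22 in fl/fl, 3 with IL-22 in KO and 1 between treated genotypes, from 7, 7 and 3, with fewer samples in the fit. Between untreated genotypes, where none passed, 1 passed without the filter and 2 at a threshold of 0.05. Leaving out 1 culture gave 6 to 7 with IL-22 in fl/fl, 7 in KO, 0 between untreated and 3 between treated genotypes, and 0 for the interaction. With the line as a replicate block the counts stayed at 7 with IL-22 in each genotype and at 0 for the interaction. Direction was read at 2 decimals, so a value of 0.00 has none. It turned only in differences that passed in no setting: Fadd between untreated genotypes (-0.064 to 0.05 over single cultures left out, -0.092 without the first KO line), Ripk1 (-0.07) and Cflar (0.013) between treated genotypes without the second fl/fl line, and the interactions of Tnfrsf1a (-0.114 without the first fl/fl line, -0.064 without the first KO line), Ripk1 (0.077 without the first fl/fl line) and Cflar (-0.022 to 0.147 over single cultures left out, -0.026 without the second KO line); the cause was not tested. The Tnf interaction ranged from -0.73 to 0.39. The other 74 pathway genes gave 8 calls in fl/fl and 11 in KO with IL-22 when lines were summed, from 26 and 24, and 12 in fl/fl without its second line and 12 in KO without its second line. The depth limits Tnf, with 7 to 30 untreated counts in fl/fl, and Zbp1, with 1 to 13 untreated counts.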

Other observations

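The counts of 2 of the genes in the same culture can be set against each other without any scaling between libraries, and these ratios were chosen after the values had been seen. The log2 ratio of Mlkl to Ripk3 counts was -2.57 ± 0.31 in untreated fl/fl and -1.66 ± 0.32 in untreated KO cultures (SD, n = 4). With IL-22 it was -3.40 ± 0.47 in fl/fl and -1.44 ± 0.18 in KO. Neither genotype comparison overlapped (exact two-sided permutation p = 0.029, the smallest possible, and 0.0508 after adjustment over 16 tests of 4 ratios). With IL-22 this ratio changed by -0.83 in fl/fl (exact p = 0.0571) and by 0.22 in KO (exact p = 0.257). The ratio of Ripk3 to Ripk1 rose with IL-22 by 1.23 in fl/fl and 0.85 in KO on the log2 scale and was lower in KO by 0.46 untreated and by 0.84 with IL-22, each with the same exact p and adjusted value. The ratio of Casp8 to Cflar was 0.67 higher with IL-22 in fl/fl and 0.45 higher in KO (the same p-values), and between genotypes it differed by -0.05 untreated and by -0.27 with IL-22, with overlap in both (exact p = 0.143 for the latter). The ratio of Casp8 to Ripk3 was lower with IL-22 by 0.61 in fl/fl (exact p = 0.029) and by 0.31 in KO (exact p = 0.0857), and differed between genotypes by 0.02 untreated (exact p = 0.857) and by 0.33 with IL-22 (exact p = 0.171).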
